A study of Rattus norvegicus with 12 samples.

Results

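The chemokine gene Cxcl14 was followed through the lungs of monocrotaline (MCT) rats that received phosphate-buffered saline (PBS), angiotensin II (AngII), TRV023 or losartan. It was 1 gene of the 19687 listed in the deposited tables, found by its symbol, and it was chosen by its lower level with AngII and with TRV023 in those tables. Its levels are therefore given as a description, with no test. MCT is a plant alkaloid that injures the pulmonary vessels and produces pulmonary hypertension in rats. All 12 animals had received it (60 mg/kg), so no healthy lung was in the comparison. The labels give an age of 9 weeks, and the methods give male Sprague-Dawley rats. Each group held 3 rats with 1 library per rat, named as in the labels (Veh, Ang2, Trv or Los with the animal number).

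AngII is the natural peptide agonist of the angiotensin II type 1 receptor (AT1R), and was infused at 1 mg/kg/day. TRV023 (TRV120023) is a β-arrestin-biased agonist of the same receptor, infused at 10 µg/kg/min, which is 14.4 mg/kg/day. Losartan, which blocks AT1R, was given at 10 mg/kg/day, and the vehicle group received PBS. The doses of the 2 agonists differed, so their values stand side by side. The methods describe minipumps placed 1 week after MCT and run for 2 weeks for the histology and the hemodynamic work. A later start and a longer infusion were used for survival. The methods do not say from which schedule the sequenced lungs came. Whole lung tissue was used, in which fewer cells of a type and less RNA per cell cannot be told apart.

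CXCL14 is a small secreted CXC chemokine that many epithelia and fibroblasts produce without an inflammatory stimulus. It attracts monocytes, dendritic cell precursors and natural killer cells. Its signalling receptor is not settled: it has been described to bind CXCR4, the receptor of CXCL12, and to interact with ACKR3 and GPR85. The study listed it among negative regulators of mitogen-activated protein kinase (MAPK) signalling. It also reports quantitative PCR checks of its sequencing, with rat primers that include Cxcl14.

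In the deposited coordinates, whose genome build is not given in the sources used here, Cxcl14 (ENSRNOG00000011984) was a protein-coding gene on the plus strand of chromosome 17, from 11271210 to 11279229, with 1612 bases counted. The promoter is shown because the gene differed between groups and because MAPK signalling acts in part through AP-1, the Fos and Jun transcription factors. It comes from RefSeq on the GRCr8 build, chr17:8322900-8323149, plus strand, and ends at the base before the start of transcription. Capitals mark the letters of an AP-1 site.

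Cxcl14 promoter: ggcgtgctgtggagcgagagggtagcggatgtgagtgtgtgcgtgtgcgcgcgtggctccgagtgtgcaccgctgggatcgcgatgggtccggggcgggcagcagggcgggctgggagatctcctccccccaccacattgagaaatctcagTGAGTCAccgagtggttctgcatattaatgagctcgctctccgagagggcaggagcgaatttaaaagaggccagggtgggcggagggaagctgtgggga

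The AP-1 letters TGANTCA, searched on both strands, lay 99 to 93 bases before the start, and 6.34% of 33469 rat promoters hold them. The GC box letters GGGCGG, a site of the Sp1 family, occurred 3 times, against at least 1 match in 30.5% of promoters. The TATA box letters TATAAA (12.9% of promoters) and the cyclic AMP response element TGACGTCA (1.59%) were not found. These shares were counted over the same window as printed, the 250 bases before the start of transcription in each promoter. A match of letters shows no binding.

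Cxcl14 was lower in every lung that received an AT1R agonist than in every lung that received PBS or losartan. In FPKM (fragments scaled to the length of the gene and the counted reads of the library), the vehicle lungs held 98.5 in Veh_923, 59.0 in Veh_924 and 40.7 in Veh_963. The AngII lungs held 25.9 in Ang2_922, 19.0 in Ang2_931 and 28.0 in Ang2_933. The 3 AngII values lay close together, and the highest of them was under the lowest vehicle value.

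The TRV023 lungs held 16.0 FPKM in Trv_917, 17.2 in Trv_918 and 12.6 in Trv_930. All 3 lay below all 3 AngII lungs. The losartan lungs held 140 FPKM in Los_925, 42.9 in Los_964 and 39.8 in Los_965, so that 1 losartan lung had the highest level of all 12 and the others lay near the lowest vehicle lung.

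**Figure D1:**
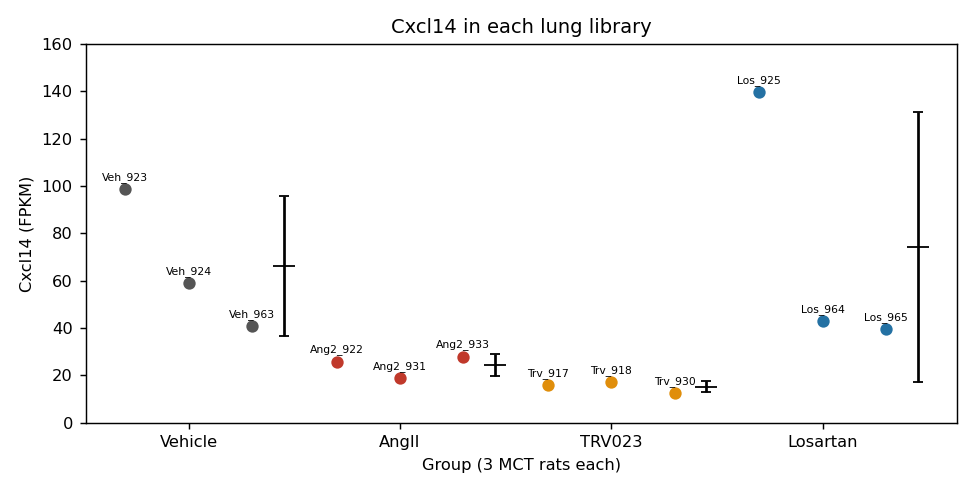
Cxcl14 in FPKM (vertical axis, from 0) in each of 12 lung libraries, by group (horizontal axis), with the library name above each point and the mean ± SD of 3 rats as a bar beside it. The 6 AngII and TRV023 points lie between 12.6 and 28.0, below the 6 vehicle and losartan points between 39.8 and 140.

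These levels rested on 382 reads in Trv_930, the fewest, and 4462 reads in Los_925, the most. The counted reads per library were 16106337 to 20096877, a far narrower range than the 11.1-fold range of the gene. Of the 16957 genes listed in all 3 tables, Cxcl14 stood above 96.03% in Los_925 and above 60.6% in Trv_930. The read counts show the same order of groups: 1317 to 3170 reads with vehicle, 575 to 781 with AngII, 382 to 557 with TRV023 and 1190 to 4462 with losartan.

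In mean level the groups ran from losartan, 74.2 ± 56.9 FPKM (SD, n = 3), through vehicle, 66.1 ± 29.6, and AngII, 24.3 ± 4.68, to TRV023, 15.3 ± 2.37. Losartan and vehicle, neighbours in this order, overlapped and did not differ beyond their spread, and by the median their order turned, with 42.9 FPKM for losartan and 59.0 for vehicle. Vehicle and AngII did not overlap, and their nearest values, 40.7 and 28.0 FPKM, stood 1.45-fold apart. AngII and TRV023 did not overlap either, but their nearest values were only 1.11-fold apart. The lowest vehicle lung was 2.37-fold above the highest TRV023 lung. Of 15662 genes counted in all 12 libraries, 32 had all 6 AngII and TRV023 lungs below all 6 others (0.204%), with Cxcl14 among them, and 31 had them all above.

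As fitted differences in edgeR, Cxcl14 was 2.48-fold lower with AngII than with vehicle, a log2 difference of −1.31 (SE 0.296). With TRV023 it was 4.33-fold lower (log2 −2.11, SE 0.303). The losartan difference was 0.17 on the log2 scale with an SE of 0.481, larger than the difference itself. Of the genes fitted, 362 of 15059 had a more negative difference with AngII and 35 of 15193 with TRV023. At an unadjusted p under 0.05, edgeR placed 5.39% of all genes lower with AngII, 2.96% with TRV023 and 0.963% with losartan. These comparisons share the vehicle lungs, and the first and second are those by which the gene was chosen.

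Set directly against each other with all 12 libraries in the fit, TRV023 lay below AngII by a log2 difference of −0.81 (SE 0.413). AngII lay below losartan by −1.48 (SE 0.414) and TRV023 below losartan by −2.28 (SE 0.426). Los_925 carried much of the last 2 differences: without it they were −0.73 and −1.54. The losartan difference from vehicle turned from 0.17 to −0.57 (SE 0.347) without this library. It was 0.77 without the rats of the 96x number series, a fit that left Los_925 as the only losartan library. Those 3 rats, Veh_963, Los_964 and Los_965, held 39.8 to 42.9 FPKM, whereas the other vehicle and losartan rats held 59.0 to 140. No label says what the number series stands for, and its part in the losartan result was not tested.

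Cxcl14 also varied between rats given the same treatment. Its SD within groups was 0.59 on the log2 scale, whereas the 2418 genes of similar level had a median SD of 0.20, and 97.3% of them varied less. The variation was wider in the groups without an agonist. The coefficient of variation was 44.8% with vehicle and 76.7% with losartan, against 19.3% with AngII and 15.5% with TRV023. The highest lung was 3.52-fold above the lowest with losartan and 1.36-fold with TRV023.

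The libraries held lung throughout: Sftpc, a surfactant protein gene of alveolar type 2 cells, ranged from 5224 to 16391 FPKM. Mitochondrially encoded genes took 9.63% to 12.3% of the reads with AngII, 5.65% to 7.55% with vehicle, 4.36% to 7.07% with TRV023 and 5.11% to 10.02% with losartan. The AngII shares lay above the vehicle shares, and their part in the Cxcl14 levels was not tested.

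Among 33 chemokine ligands listed in all 3 tables, Cxcl14 held the 9th place by mean FPKM with vehicle and the 8th with losartan. With AngII it held the 13th and with TRV023 the 16th. The lung was dominated by Ccl21, a ligand of CCR7 that guides dendritic and T cells (1140 FPKM with vehicle), the neutrophil attractant Cxcl3 (816) and Cxcl12 (312). None of these changed its place by more than 1 between groups.

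The other chemokine genes lay on both sides of vehicle. Of the chemokine genes other than Cxcl14, 50 were tested with AngII, 49 with TRV023 and 50 with losartan, and 0 passed an adjusted p of 0.05 in edgeR (0.0133%, 0.00658% and 0% of all genes tested did). With AngII, edgeR had 1 chemokine gene lower and 2 higher by an unadjusted p under 0.05 (5.39% and 6.54% of all genes), and their median log2 difference was 0.24 against −0.02 over all genes. With TRV023, 5 were lower and 3 higher (2.96% and 2.61% of all genes), with a median of −0.16 against 0.00. With losartan, 1 was lower and 0 were higher (0.963% and 0.686%), with a median of −0.11 against 0.01. By DESeq2 without a filter, an adjusted p of 0.05 was passed by 0 chemokine genes with AngII (1.11% of all genes), by Pf4 alone with TRV023 (0.549%) and by 0 with losartan (0.0327%). The losartan count of 1 lower gene became 4 in DESeq2 and 10 in edgeR without Los_925, where the median was −0.46.

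**Figure D2:**
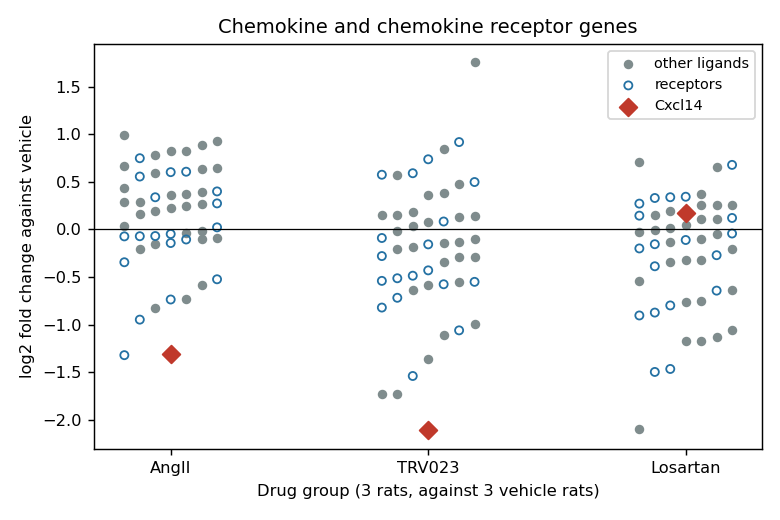
Log2 fold change against vehicle (vertical axis) of each chemokine ligand (grey points) and chemokine receptor (open circles) tested in the 3 drug groups (horizontal axis), with Cxcl14 as a red diamond. Cxcl14 lies at −1.31 with AngII, next to the receptor gene Ackr4 at −1.32, below every other chemokine gene at −2.11 with TRV023, and among the others at 0.17 with losartan. Points are spread sideways for legibility.

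Among the ligands, Pf4, the platelet chemokine CXCL4, stood on the other side from Cxcl14 with both agonists. Its levels were 158 to 174 FPKM with vehicle, 195 to 353 with AngII, 245 to 389 with TRV023 and 136 to 168 with losartan. All 6 agonist lungs lay above all 6 others, the reverse of Cxcl14. The log2 difference was 0.83 (SE 0.224, edgeR adjusted p = 0.336) with AngII and 0.85 (SE 0.201, adjusted p = 0.543) with TRV023, where it passed in DESeq2 only.

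Cxcl9, an interferon-induced attractant of T cells, was the ligand most like Cxcl14 across the libraries (Pearson r = 0.72). It measured 8.11 to 9.87 FPKM with vehicle and 3.56 to 5.91 with TRV023, without overlap (log2 −0.99, SE 0.254, edgeR adjusted p = 0.578). With AngII it measured 4.24 to 12.5 FPKM, which spanned the vehicle values (log2 −0.09, SE 0.354). The neutrophil attractant Cxcl2 measured 1.95 to 2.16 FPKM with vehicle and 3.20, 4.20 and 13.4 with TRV023 (log2 1.76, SE 0.556, edgeR adjusted p = 0.704). Cxcl10, another interferon-induced ligand, had a log2 difference of 0.997 with AngII (SE 0.436, edgeR adjusted p = 0.417), and the monocyte attractant Ccl3 one of 0.59 (SE 0.266, adjusted p = 0.424).

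Among the receptors, Ackr4, which scavenges CCL19 and CCL21, had the difference nearest to that of Cxcl14 with AngII (log2 −1.32, SE 0.441, edgeR adjusted p = 0.372). It measured 6.50 to 10.3 FPKM with vehicle and 1.47 to 4.63 with AngII. With losartan the smallest p values belonged to Ccr6, the receptor of CCL20 (log2 −1.50, SE 0.646), the B cell attractant Cxcl13 (−2.10, SE 0.920), the dendritic cell receptor Xcr1 (−0.90, SE 0.432) and the CCR7 ligand Ccl19 (−1.18, SE 0.576), each with an edgeR adjusted p of 0.9999.

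Of the proposed partners of CXCL14, Cxcr4 had the r farthest from 0. Cxcr4 measured 38.6, 31.3 and 61.5 FPKM in Veh_923, Veh_924 and Veh_963, and 82.5, 110 and 57.2 in Trv_917, Trv_918 and Trv_930. The highest vehicle value lay above the lowest TRV023 value, and the log2 difference was 0.92 (SE 0.296, edgeR adjusted p = 0.721). The AngII lungs, at 42.8 to 55.6 FPKM, and the losartan lungs, at 44.1 to 57.1, lay within the vehicle range. Across 12 libraries Cxcr4 ran against Cxcl14 (r = −0.71, Spearman rho = −0.64).

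Cxcl12, the ligand shared with CXCR4, measured 260 to 402 FPKM with vehicle and 222 to 280 with TRV023, with a wide 92.8 to 519 with losartan. Its highest value belonged to Los_925, as did that of Cxcl14, but its r with Cxcl14 was 0.21. Ackr3, listed under its older symbol Cxcr7, ranged from 35.6 to 103 FPKM with r = 0.11. Gpr85 was listed at no more than 0.294 FPKM and had too few reads to test. Over the 50 other chemokine genes the r with Cxcl14 ran from −0.72 for Pf4 to 0.72 for Cxcl9, with a median of 0.03.

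To find the genes whose pattern was most like that of Cxcl14, log2 CPM (counts scaled to library size after TMM) was correlated with that of Cxcl14 over the 12 libraries. These points share library, depth and treatment group, 12296 genes were ranked, and the values are a description. The median r over all 15662 genes was −0.00, the middle 50% of genes lay between −0.23 and 0.25, and 11 genes reached 0.80. The 10 highest were Anxa5, Col17a1, Heg1, Syt7, Esco2, Icoslg, Dusp8, Cep72, Lamp3 and Pi4ka, from r = 0.91 to 0.81.

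**Figure D3:**
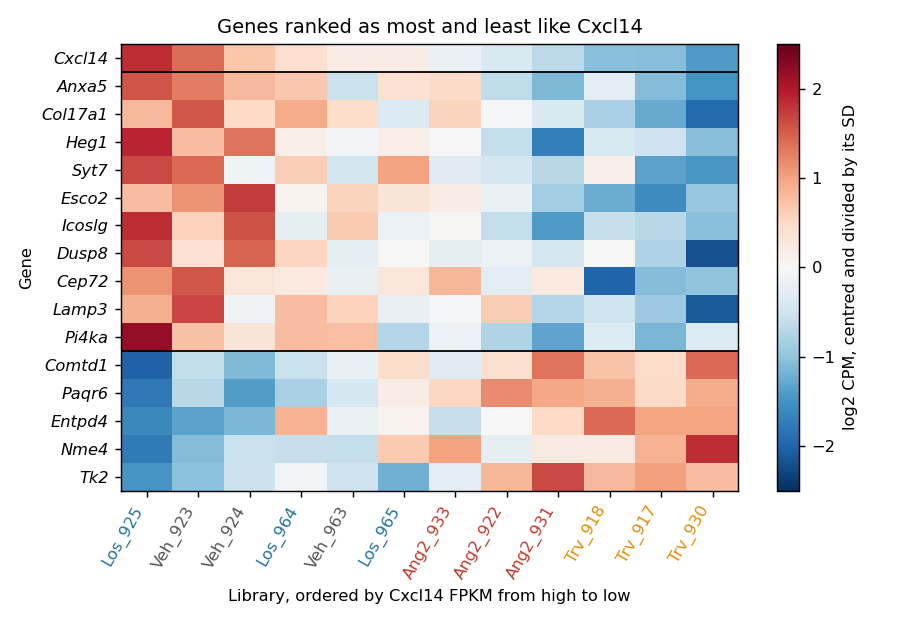
Log2 CPM of Cxcl14 (top row), the 10 genes with the highest r and the 5 with the lowest r (rows, between black lines), centred and divided by the SD of each gene, in 12 libraries ordered by Cxcl14 from high to low (columns, label colour by group). Los_925 and Veh_923 are high and the TRV023 libraries low in most of the upper rows, while the 5 lowest rows, with r from −0.85 to −0.89, run the other way.

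Anxa5, a calcium-dependent protein that binds phosphatidylserine, headed the list (r = 0.91, rho = 0.92). It measured 475, 445 and 378 FPKM in Veh_923, Veh_924 and Veh_963, and 358, 309 and 381 in Ang2_922, Ang2_931 and Ang2_933. It measured 346, 403 and 336 FPKM in Trv_917, Trv_918 and Trv_930, and 506, 393 and 411 in Los_925, Los_964 and Los_965. The order of lungs was close to that of Cxcl14, but the span was small: the highest lung was 1.64-fold above the lowest, against 11.1-fold for Cxcl14, and AngII and TRV023 overlapped with vehicle.

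Col17a1, a transmembrane collagen of epithelial hemidesmosomes, came next (r = 0.87). Its means were 3.61 ± 1.09 FPKM with vehicle, 2.25 ± 0.483 with AngII, 1.35 ± 0.366 with TRV023 and 2.94 ± 0.846 with losartan (SD, n = 3). The 3 TRV023 lungs, at 0.990 to 1.72 FPKM, were the lowest of all, as for Cxcl14. Lamp3, a lysosomal membrane protein of alveolar type 2 cells and mature dendritic cells, had r = 0.82, with 163 ± 38.3 FPKM for vehicle, 121 ± 26.8 for AngII, 99.7 ± 21.7 for TRV023 and 147 ± 25.1 for losartan.

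Heg1, a mucin-like membrane receptor of endothelial and mesothelial cells, had r = 0.86. It was the only one of the 10 in which all 6 agonist lungs (4.31 to 8.05 FPKM) lay below all 6 others (8.35 to 17.7 FPKM), with Los_925 at the top. Esco2, which acetylates cohesin as DNA is copied, had r = 0.85 and the means with the widest separation, 3.72 ± 1.14 FPKM with vehicle, 1.58 ± 0.442 with AngII, 1.02 ± 0.177 with TRV023 and 2.40 ± 0.623 with losartan. Unlike Cxcl14, its highest lung was Veh_924.

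The remaining 5 were Syt7, a calcium sensor of lysosome exocytosis (r = 0.85), Icoslg, the ligand of the T cell costimulator ICOS (0.85), Dusp8, a phosphatase that inactivates MAP kinases (0.83), the centrosomal gene Cep72 (0.82) and the lipid kinase Pi4ka (0.81). Los_925 was the highest library for 6 of the 10 genes and Veh_923 for 3. Promoters were found for 8 of the 10, of which 0 held the AP-1 letters and 5 the GC box.

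**Figure D4:**
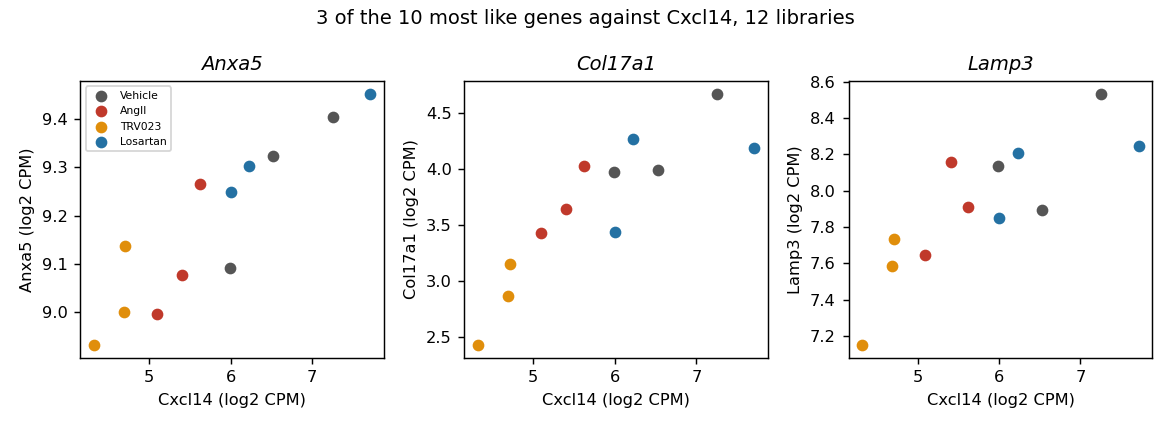
Log2 CPM of Anxa5, Col17a1 and Lamp3 (vertical axes, own scale each) against that of Cxcl14 (horizontal axes) in 12 libraries, coloured by group. The points rise from the TRV023 libraries at the lower left to the vehicle and losartan libraries at the upper right (r = 0.91, 0.87 and 0.82), while the range of Anxa5 is far smaller than that of Cxcl14.

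Part of this likeness lay within groups. After the mean of each group was subtracted, r was 0.80 for Anxa5, 0.81 for Heg1 and 0.67 for Col17a1, but 0.48 for Esco2. When the libraries farthest from the median of Cxcl14, Los_925 and Trv_930, were left out, r was 0.84 for Anxa5, 0.90 for Col17a1, 0.91 for Esco2 and 0.68 for Dusp8. The genes with the highest r within groups were others: Aatf, an inhibitor of apoptosis (0.97), the interferon-induced GTPase Igtp (0.95), the ATPase Ola1 (0.94), the endoplasmic reticulum gene Tmtc2 (0.94) and the transporter Slc16a6 (0.93). Over all 12 libraries their r was −0.14 to 0.51. The values of r within groups weigh the losartan and vehicle lungs most. The SD of Cxcl14 there was 0.93 and 0.63 on the log2 scale, against 0.26 with AngII and 0.22 with TRV023. The r within groups was not taken again with libraries left out.

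The genes that ran against Cxcl14 were Comtd1, which resembles a methyltransferase (r = −0.89), the membrane progestin receptor gene Paqr6 (−0.87), the nucleotidase Entpd4 (−0.86) and the mitochondrial enzymes Nme4 (−0.85) and Tk2 (−0.85). The spans of Comtd1 (7.25 to 9.90 FPKM) and Tk2 (9.45 to 13.5 FPKM) were small, while Nme4 ranged from 3.24 to 9.46 FPKM. Tk2 was 10.5 ± 0.394 FPKM with vehicle and 13.2 ± 0.304 with TRV023.

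The same measure was taken for 26 lists of cell type markers. The mesothelial list, of cells that line the pleura, had the highest median r (0.40, 8 of 10 genes measured, range −0.11 to 0.61). The alveolar type 2 list followed (0.35, 10 genes, −0.06 to 0.82), and then the dendritic cell list (0.25, 6 genes, 0.08 to 0.45). The order of these lists was not fixed. The type 2 list came first by Spearman rho (0.39 against 0.36 for mesothelial), without Veh_924 (0.45 against 0.38) and without Los_925 (0.38 against 0.28), and the dendritic cell list came first without Trv_930 (0.42 against 0.31). The lowest were neutrophils (−0.45), adventitial fibroblasts (−0.32) and club cells (−0.30). The alveolar fibroblast list had 0.16. After the mean of each group was subtracted, the mast cell list had the highest median r (0.54), followed by the mesothelial list (0.48). Over the 12 libraries the mast cell median was −0.16. The r of the mesothelial, type 2, dendritic cell and neutrophil lists already reflects the low Cxcl14 of the TRV023 lungs. How these lists stood with TRV023, given below, is therefore not independent of their r.

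With AngII, of 9 ciliated cell genes of the airway lining, 6 were lower at an unadjusted p under 0.05, against 5.39% of all genes tested, with a list median of −1.25. Their summed level was 54.4 to 122 FPKM with vehicle, 19.5 to 53.1 with AngII, 62.5 to 117 with TRV023 and 35.8 to 70.0 with losartan, with Dnah5 at 0 in at least 1 library. Of 8 tested club and secretory cell genes, 4 were lower with AngII, with a list median of −0.78. The sum over the 10 genes of that list was 13237 to 31177 FPKM with vehicle, 6864 to 14326 with AngII, 18197 to 32405 with TRV023 and 9995 to 24344 with losartan, with Bpifa1 and Reg3g at 0 in at least 1 library. The ciliated sums with AngII lay below those with vehicle, while the club cell sums overlapped. In both lists 0 genes passed an edgeR adjusted p of 0.05 with AngII. With TRV023, 0 genes of either list were lower at an unadjusted p under 0.05. The part of these cells in the Cxcl14 levels was not tested.

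**Figure D5:**
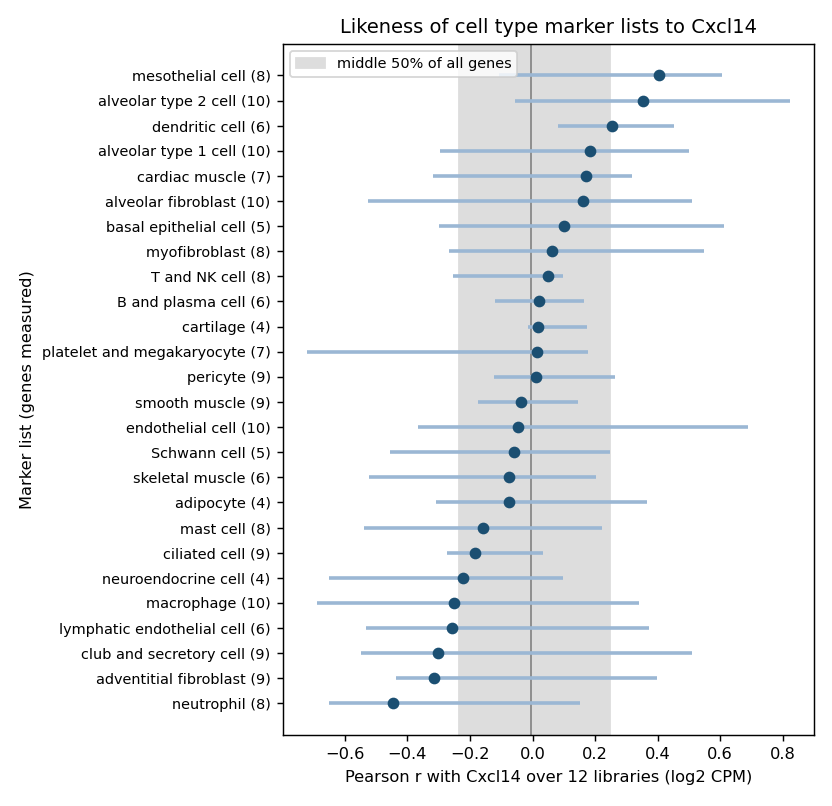
Median Pearson r with Cxcl14 over 12 libraries (points) and the range over genes (lines) for 26 cell type marker lists (rows, with the number of genes measured), beside the middle 50% of all genes (grey band, −0.23 to 0.25). The mesothelial (0.40), alveolar type 2 (0.35) and dendritic cell (0.25) medians lie to the right of the band, and most lists span 0.

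The mesothelial genes with the highest r were the uroplakins Upk1b (0.61) and Upk3b (0.55), the membrane protein gene Lrrn4 (0.55) and Gpm6a (0.45). Upk3b measured 13.6, 9.65 and 1.68 FPKM in Veh_923, Veh_924 and Veh_963, and 5.62, 0.961 and 0.836 in Trv_917, Trv_918 and Trv_930. In Los_925, Los_964 and Los_965 it measured 13.9, 1.05 and 5.08 FPKM, and in Ang2_922, Ang2_931 and Ang2_933 it measured 10.8, 5.61 and 0.770. The lungs highest in Cxcl14, Los_925 and Veh_923, were also highest in Upk3b. Ang2_922, however, had a high Upk3b with a low Cxcl14.

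The summed level of the 9 mesothelial genes listed in all 3 tables was 41.6 to 99.9 FPKM with vehicle, 30.5 to 92.4 with AngII, 33.8 to 67.4 with TRV023 and 27.6 to 95.5 with losartan, and Bnc1 was at 0 in at least 1 library. The AngII sums overlapped the vehicle sums, while the Cxcl14 of the AngII lungs lay below that of vehicle. Of the 8 tested genes, 0 passed an adjusted p of 0.05 in any comparison with vehicle. With TRV023, 3 were lower at an unadjusted p under 0.05, against 2.96% of all genes tested, namely Upk1b (log2 −1.97, SE 0.807), Lrrn4 (−2.05, SE 0.754) and Gpm6a (−0.82, SE 0.258), with a list median of −1.22. With AngII there were 0 in either direction, with a median of 0.04, and with losartan 0, with a median of −0.41. With single libraries left out, the TRV023 median ran from −1.99 (without Trv_917) to −0.81 (without Veh_923) and the losartan median from −1.34 (without Los_925) to −0.11 (without Veh_923). The AngII median had no stable sign, from −0.35 (without Ang2_922) to 0.40 (without Ang2_933). The part of these genes in the Cxcl14 levels was not tested. Without Los_925 and Trv_930 the median r of the list was 0.15.

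In the alveolar type 2 list, Lamp3 (0.82) stood apart, followed by the phosphate transporter Slc34a2 (0.47) and the surfactant genes Sftpa1 (0.42) and Abca3 (0.41). Within groups the median r of the list was 0.00. The summed level of its 10 genes was 11249 to 24537 FPKM with vehicle, 17790 to 22043 with AngII, 10476 to 17206 with TRV023 and 15966 to 29925 with losartan, and none was at 0 in any library. The AngII sums lay inside the vehicle range. Lamp3 was the lower gene of the list at an unadjusted p under 0.05 with TRV023, 1 of 10 against 2.96% of all genes tested. With AngII and losartan 0 of 10 were lower, against 5.39% and 0.963% of all genes. The list medians were −0.33 with TRV023, 0.05 with AngII and 0.27 with losartan. With single libraries left out, the TRV023 median ran from −0.58 (without Veh_924) to −0.14 (without Veh_923). The AngII median ran from −0.13 (without Veh_924) to 0.31 (without Veh_923) and the losartan median from −0.06 (without Los_964) to 0.52 (without Veh_923), so that neither kept its sign.

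In the dendritic cell list all 6 genes had an r above 0, led by the homing receptor Ccr7 (0.45), the transcription factor Zbtb46 (0.31), the integrin Itgae (0.28) and the growth factor receptor Flt3 (0.23). The summed level was 46.7 to 57.4 FPKM with vehicle, 37.4 to 43.3 with AngII, 24.6 to 53.8 with TRV023 and 29.7 to 50.9 with losartan. The AngII lungs lay below the vehicle lungs, while TRV023 and losartan overlapped with them. At an unadjusted p under 0.05, 1 of 6 genes was lower with TRV023, against 2.96% of all genes tested. With losartan 1 of 6 was also lower (0.963% of all genes), and with AngII 0 (5.39%). The list medians were −0.46 with TRV023, −0.25 with AngII and −0.36 with losartan. Itgae had a log2 difference of −0.59 with TRV023 (SE 0.242, edgeR adjusted p = 0.849). The neutrophil list, the lowest in median r, ran the other way. Its sum was 153 to 337 FPKM with vehicle, 395 to 760 with TRV023, 197 to 452 with AngII and 97.0 to 728 with losartan. With TRV023, 4 of 8 genes were higher at an unadjusted p under 0.05, against 2.61% of all genes tested. With AngII 1 of 8 was higher (6.54% of all genes) and with losartan 0 (0.686%). The list medians were 1.06 with TRV023, 0.44 with AngII and 0.76 with losartan. The part of the neutrophil list in the Cxcl14 levels was not tested.

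Because the study placed Cxcl14 beside MAPK signalling, 14 genes that ERK signalling induces were read in the same way. Their median r with Cxcl14 was −0.13, and 0 passed an adjusted p of 0.05 in the comparisons with vehicle. With AngII, 1 was higher at an unadjusted p under 0.05, against 6.54% of all genes tested, the transcription factor Etv4 (log2 0.58, SE 0.231). With TRV023, 2 were higher, against 2.61% of all genes tested, the feedback inhibitor Spry2 (0.52, SE 0.122, edgeR adjusted p = 0.538) and Fos (1.61, SE 0.586). Spry2 measured 23.8 to 27.5 FPKM with vehicle and 34.7 to 39.2 with TRV023. With losartan there were 0 in either direction.

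No tested gene around Cxcl14 passed an adjusted p of 0.05 in edgeR. Txndc15, a thioredoxin-domain gene on the minus strand, spans Cxcl14 in the deposited annotation (11147557 to 11548829), and whether reads were counted by strand is not given. It measured 49.2 to 71.3 FPKM over all 12 libraries, with log2 differences of 0.21, 0.08 and −0.04 with AngII, TRV023 and losartan (edgeR adjusted p = 0.587, 0.993 and 0.9999). Its r with Cxcl14 was −0.53, and its lowest library, Los_925, was the highest for Cxcl14. On one side lay Pcbd2, a pterin dehydratase gene (r = −0.11), and Catsper3, a sperm channel subunit listed at or near 0. On the other lay a pseudogene of at most 1.31 FPKM, the ribosomal gene Rplp1 and Tifab, an inhibitor of TRAF6 signalling. Rplp1 had a log2 difference of 0.65 with AngII (SE 0.212, edgeR adjusted p = 0.372) and Tifab one of −0.52 with TRV023 (SE 0.216, adjusted p = 0.864).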

How the data were processed

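Lung RNA of 12 MCT rats was sequenced, with 3 separate rats per group by the methods. The deposited tables, 1 per drug with vehicle, hold whole-number read counts per gene, FPKM made by the authors from gene length and counted reads, and a scaled signal that the authors made by dividing counts by 1 factor per library, which was not used. Fold changes and p-values computed by the authors, on a log2 scale in the deposited tables, were left aside, as were the shorter tables of selected genes. The aligner, counter, build, annotation and strandedness were not given in the sources used here. Counts per library were 16106337 to 20096877.

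For the comparisons of a drug and vehicle, the 6 libraries of a table were fitted in edgeR 4.0.16 under R 4.3.3 (filterByExpr, TMM, glmQLFit, glmQLFTest), giving Benjamini-Hochberg adjusted p over all genes tested. The SE was taken from the F statistic. Drugs were compared, and likeness measured, with the 15662 genes of all 3 tables that pass the filter, on log2 CPM with a prior count of 2. Because Cxcl14 was chosen by these contrasts, it was given no p. The gene, the lists and the comparisons were chosen with earlier results of these data known.

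The genes named are Cxcl14, the 10 highest and 5 lowest in r, and the 5 highest within groups, with a mean of at least 1 FPKM and no clone, LOC or RGD name. They also include 3 neighbours on each side, the CXCL14 partners, up to 4 chemokine genes with the smallest p per comparison, and up to 4 genes of the 3 lists highest in median r. Other genes (Ccl21, Cxcl3, Sftpc, Spry2, Fos, Etv4 and Bnc1) were named after their values were seen. Alternatives were DESeq2 1.42.0, limma 3.58.1 (voom, and on log2 FPKM plus 1 or 0.1), RLE or library totals, another count filter (none, or 10 reads in each library), a fit of all groups, Spearman rho and each library left out. The edgeR and likeness steps were tested on simulated data. Promoters came from a RefSeq table (GRCr8), and figures from matplotlib 3.10.9 in Python 3.11.15.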

Additional observations from a re-analysis of the deposited data

How the results depend on the processing

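The Cxcl14 differences from vehicle stayed negative in every alternative run for AngII (log2 −1.56 to −0.91) and TRV023 (−2.36 to −1.71), where leaving out the 96x number series is the same fit as leaving out Veh_963, and TRV023 stayed below AngII in 8 (−0.93 to −0.67). The losartan difference ran from −0.57 to 0.77 over 17 alternatives. The value of 0.77 came without the animals of the 96x number series, which left Los_925 as the only losartan library. With single libraries left out the losartan difference ran from −0.57 to 0.58, AngII against losartan from −1.77 to −0.73, and TRV023 against losartan from −2.57 to −1.54. Chemokine genes at an unadjusted p under 0.05 numbered, for AngII higher, 4 by DESeq2 and 1 with library totals, for TRV023 lower, 2 with all 4 groups in 1 fit, and for losartan lower, 4 by DESeq2, 0 with library totals, 2 without a filter and 2 with all groups in 1 fit. With single libraries left out they numbered 1 to 2 lower and 1 to 6 higher for AngII, 3 to 5 lower and 2 to 4 higher for TRV023, and 0 to 10 lower and 0 to 2 higher for losartan, whose median ran from −0.46 to −0.036. The causes were not tested. Of the 10 genes most like Cxcl14, 9 or 10 were in the first 50 under Spearman rho, log2 FPKM, library totals and each library left out, and 7 without Los_925 and Trv_930, an alternative chosen after seeing the data, as was leaving out Veh_923 and Los_925 together (losartan against vehicle, −0.17). Only 5 of the 10 were in the first 10 under Spearman rho, 8 under log2 FPKM or library totals, 2 to 8 with single libraries left out and 2 without Los_925 and Trv_930, and the first gene was Anxa5 in some settings and another gene in the others. No paired analysis was possible because the groups share no animal number. With 3 rats a group and whole lung, small changes and cell sources were not resolved.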
